A study of Homo sapiens with 4 samples.

Results

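The distal part of the long arm of chromosome 5 held 12073 of the 149858 accessible regions mapped in MCF10A cells with or without active TAZ. MCF10A is a line of human mammary epithelium that is not tumour-derived, and the cells here carried a tet-inducible TAZ-4SA, an activated form of the transcriptional coactivator TAZ. Dox cells received 0.05 µg/mL doxycycline for 72 h to switch TAZ-4SA on, and No Dox cells carried the same construct without doxycycline. Both groups grew in DMEM/F12 medium with horse serum, EGF, hydrocortisone, cholera toxin and insulin, and 50000 cells entered each ATAC-seq reaction, in which a transposase cuts open DNA. Each group had 2 biological replicates that were pooled into 1 peak list, so no value below has a replicate spread and no test was possible. Doxycycline itself and TAZ-4SA cannot be told apart in this design, and whether the transduced line was 1 clone is not given in the sources used here.

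Overlapping or touching peaks of both lists were merged into regions, which were called Dox-only, NoDox-only (No Dox alone) or shared by the lists that held a peak there. Members were the regions of chromosome 5 that start at 110 Mb or beyond in the hg38 build. They were selected on measured values, because this stretch was chosen for its crowded peaks, so its density, folds and balance are given as descriptions. The segment is 71.5 Mb long and was set beside the 4007 regions on the other 110 Mb of chromosome 5 and the 133778 regions of the other chromosomes. At the threshold, the last 5 regions outside had folds of 2.97 to 12.5 and the first 5 inside had folds of 3.39 to 11.4. No density step lay at 110 Mb, as described below.

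As background, open chromatin marks promoters and enhancers, where transcription factors displace nucleosomes. TAZ has no DNA-binding domain of its own and is brought to DNA by TEAD factors, which read the sequences ACATTCC and GCATTCC. AP-1, a dimer of JUN and FOS proteins that often works beside TEAD at enhancers of epithelial cells, reads TGACTCA and its complement TGAGTCA. Distal 5q holds the interleukin cluster, the clustered protocadherins and many single developmental genes. MCF10A is not diploid throughout, and extra copies of distal 5q are known in this line. Copy number was not measured in these files, so more copies of the DNA and more open DNA per copy cannot be told apart.

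The sequences below are the 201 bases around the summit of 4 condition-only members that were among the 5 of highest fold in their class and held a TEAD or AP-1 motif there. They are shown because they join the condition, the fold and the motif in single regions. All are the plus strand of hg38, with the TEAD or AP-1 motif in capitals.
Dox-only region in TENM2, chr5:167803117-167803317: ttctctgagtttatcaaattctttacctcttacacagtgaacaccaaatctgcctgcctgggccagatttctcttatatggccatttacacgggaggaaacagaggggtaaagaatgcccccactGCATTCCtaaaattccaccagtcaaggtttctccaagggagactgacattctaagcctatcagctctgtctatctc
Dox-only region near SGCD, chr5:155554588-155554788: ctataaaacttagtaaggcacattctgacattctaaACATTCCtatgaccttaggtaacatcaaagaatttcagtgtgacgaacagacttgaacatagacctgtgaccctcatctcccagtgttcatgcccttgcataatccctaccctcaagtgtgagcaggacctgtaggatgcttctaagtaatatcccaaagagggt
NoDox-only region near PRR16, chr5:120160262-120160462: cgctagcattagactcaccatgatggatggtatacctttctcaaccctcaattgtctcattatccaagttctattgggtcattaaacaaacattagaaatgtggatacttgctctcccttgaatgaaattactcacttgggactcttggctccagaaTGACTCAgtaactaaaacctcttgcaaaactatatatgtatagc
NoDox-only region in TRPC7, chr5:136279417-136279617: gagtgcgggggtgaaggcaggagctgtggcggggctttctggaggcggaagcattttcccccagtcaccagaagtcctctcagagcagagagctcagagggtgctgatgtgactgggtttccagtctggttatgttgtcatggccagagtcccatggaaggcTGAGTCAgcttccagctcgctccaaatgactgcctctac

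The Dox-only region in TENM2 (chr5:167802668-167803558) lay in an intron, 15.6 kb from the nearest TENM2 start, with a fold of 15.4 in the Dox list and no peak in the No Dox list. TENM2 encodes a teneurin, an adhesion protein of neuronal synapses. The Dox-only region near SGCD (chr5:155554325-155554886) had a fold of 12.4, with its nearest coding start 315 kb away. Both windows held 1 TEAD motif and no AP-1 motif.

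The NoDox-only region near PRR16 (chr5:120159407-120160855) was intergenic, 303 kb from the nearest coding start, with a fold of 14.2 in the No Dox list. The NoDox-only region in TRPC7 (chr5:136278527-136279937) lay in an intron of this cation channel gene with a fold of 14.0. These windows held 1 AP-1 motif each and no TEAD motif. Of the other condition-only regions of highest fold, those described here held neither motif near their summit. They were 2 Dox-only regions, in LINC02214 (chr5:116754461-116755249, fold 16.7) and SNX24 (chr5:122849275-122850340, fold 13.1), and 3 NoDox-only regions, in an FBN2 exon (chr5:128348907-128350271, fold 17.4), in FBXO38-DT (chr5:148186093-148186963, fold 12.5) and 77.5 kb from the nearest start of SEMA6A (chr5:116652365-116653524, fold 12.1). FBN2 encodes fibrillin-2, a protein of extracellular microfibrils.

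The shared members of highest fold were all at promoters. The region over the DMXL1 start had a fold of 58.8 in Dox and 71.4 in No Dox, and the region at ISOC1 had 50.4 in Dox and 68.0 in No Dox. The region between NUDCD2 and HMMR, which encodes a hyaluronan receptor of the mitotic spindle, had 50.4 in Dox and 61.0 in No Dox. TRIM36 had 40.9 in Dox and 60.6 in No Dox, and G3BP1, a stress granule protein, had 40.9 in Dox and 57.0 in No Dox. A fold is the authors' ratio of signal to background at a summit, set against its own list, so the higher No Dox folds are not a measured difference between the conditions.

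Across the series, the Dox list held 84353 peaks and the No Dox list 117740, with median folds of 4.07 in Dox and 3.81 in No Dox. Read counts are not part of the lists, so the depth behind them is unknown, and the exact Clopper-Pearson intervals of 95% given below cover counting error only. Of 8 genes that mark basal or epithelial cells, 7 had a promoter peak in both lists and KRT14 had none in either. Of 7 markers of leukocytes and endothelium, 6 had no promoter peak in either list and CD79A had a peak in Dox alone. These markers were picked after the lists had been read.

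The members comprised 2668 Dox-only regions, 5871 NoDox-only regions and 3534 shared regions. Dox-only regions were 22.1% of the members, against 22.3% of all regions of the series, and NoDox-only regions were 48.6% of the members, against 45.3% of all regions. On the rest of chromosome 5, 17.5% of regions were Dox-only, 54.5% NoDox-only and 28.0% shared. Of the condition-only members, 31.2% (30.3 to 32.2) were Dox-only, against 24.3% (22.8 to 25.9) on the rest of chromosome 5 and 33.5% (33.1 to 33.8) on the other chromosomes. The balance of the segment thus lay above that of its own chromosome and below that of the genome. The majority of NoDox-only members and the order of the segment and the other chromosomes both rested on the length of the lists. With only as many No Dox peaks kept, by q-value, as the Dox list holds, the share was 50.8% (49.6 to 52.1) in the segment, 42.2% (40.0 to 44.5) on the rest of chromosome 5 and 49.1% (48.8 to 49.5) on the other chromosomes.

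The balance of the segment against the rest of its chromosome turned round among higher folds. A region counted as strong if one of its peaks reached the median fold of the list it came from. Of the 4857 strong members, 484 (9.96%) were Dox-only and 1546 (31.8%) NoDox-only, where 13.5% of all strong regions of the series were Dox-only and 27.4% NoDox-only. The Dox-only share of condition-only strong regions was 23.8% (22.0 to 25.8) in the segment, 31.9% (28.9 to 35.0) on the rest of chromosome 5 and 33.8% (33.2 to 34.4) on the other chromosomes. Of the 1074 members with a fold of 8 or more, 33 (3.07%) were Dox-only and 39 (3.63%) NoDox-only, where 4.13% of all such regions were Dox-only and 3.99% NoDox-only. Their Dox-only share was 45.8% (34.0 to 58.0) in the segment and 69.4% (56.3 to 80.4) on the rest of chromosome 5, where 43 regions were Dox-only and 19 NoDox-only. These intervals overlap, and the other chromosomes had 50.3% (47.6 to 52.9).

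The segment had 169 regions per Mb, against 36.5 per Mb on the rest of chromosome 5 and 49.0 per Mb on the other chromosomes, a ratio of 4.63 over its own chromosome and 3.45 over the others. Both conditions showed this crowding. The Dox list had 90.3 peaks per Mb in the segment and 16.9 on the rest of chromosome 5 (ratio 5.34), and the No Dox list had 133 peaks per Mb in the segment and 30.2 on the rest (ratio 4.42). The median stretch between neighbouring regions was 2.29 kb in the segment and 12.0 kb on the rest of the chromosome. Dox peaks covered 57.2 kb per Mb of the segment, against 10.6 kb per Mb of the rest, and No Dox peaks covered 92.3 kb per Mb, against 18.4 kb per Mb. Dox-only regions were 5.84 times denser in the segment, shared regions 4.85 times and NoDox-only regions 4.13 times. Coding genes were 2.20 times denser, with 7.26 gene starts per Mb in the segment, 3.31 on the rest of chromosome 5 and 6.99 on the other chromosomes.

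**Figure D1:**
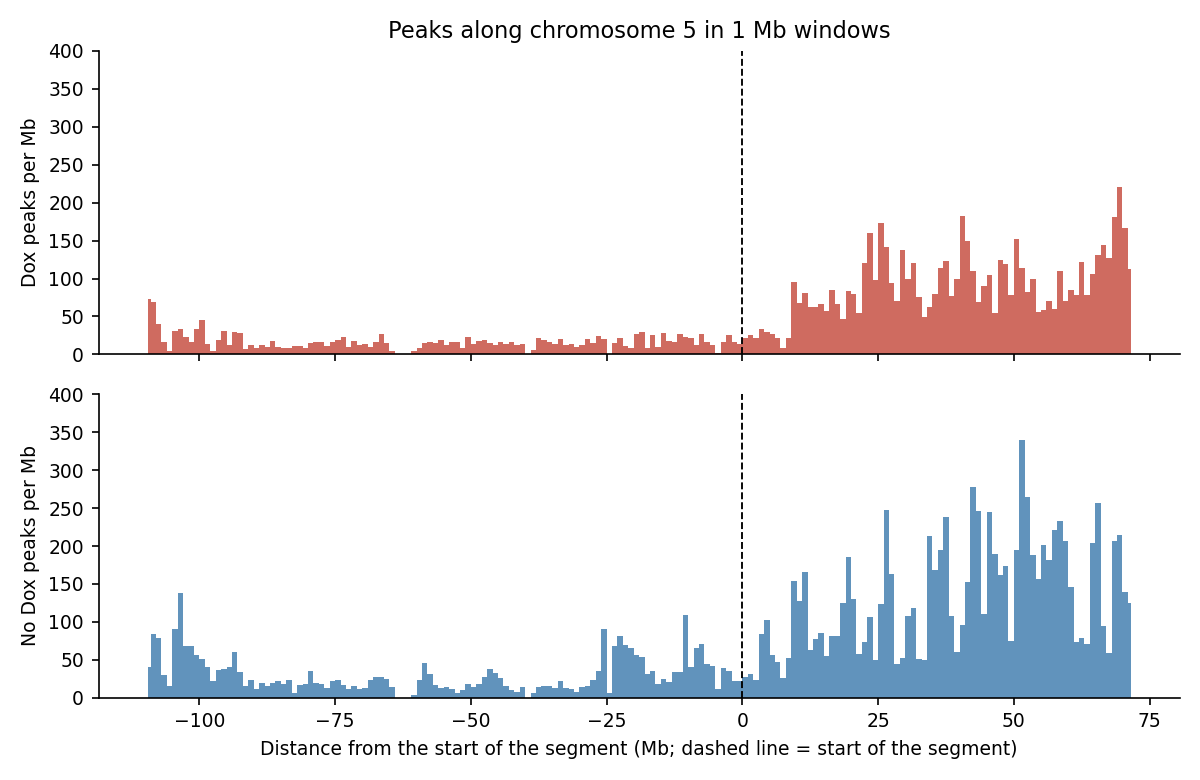
Peaks per Mb in 1 Mb windows along chromosome 5, for the Dox list (upper panel) and the No Dox list (lower panel), against the distance from the start of the segment in Mb. In both lists the high level begins about 9 Mb inside the segment, not at the dashed line that marks its start.

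The rise was not at the start of the segment but at 119 Mb. When the 182 windows of 1 Mb were split at the point that left the least spread within both sides, that point was 119 Mb for Dox peaks, No Dox peaks, all regions, regions outside promoters and regions with a fold of 8 or more. Dox peaks averaged 100 per Mb beyond it and 17.4 before it, and No Dox peaks averaged 145 per Mb beyond it and 31.7 before it. The first 9 Mb of the segment held 532 members, or 59.1 per Mb, and the 62.5 Mb beyond held 11541, or 185 per Mb. The windows from 117, 118 and 119 Mb held 29, 66 and 177 regions, but single windows on the 2 sides overlapped. The 9 windows of the segment before 119 Mb held 29 to 117 regions (median 57.0), and the 63 from 119 Mb on held 64 to 361 (median 189). Of these 63, 24 held no more than the richest window before the step on chromosome 5, which had 150. In steps of 100 kb the count was 8 at 119.2 Mb, 17 at 119.3 Mb, 11 at 119.4 Mb and 26 at 119.5 Mb. The first 9 Mb also had the folds of the rest of the chromosome, with a Dox median of 4.75, against 3.84 beyond 119 Mb.

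Within the segment the density of 5 Mb windows was highest at 160 to 165 Mb, with 256 regions per Mb, and lowest in the first 5 Mb, with 63.4. The richest single Mb began at 161 Mb, with 361 regions. Among the 292 windows of 10 Mb in the genome, with a median of 37.8 regions per Mb, the 7 whole windows of the segment ranked between 6 and 37. Crowding was not complete: the longest stretches without a region were 267 kb (chr5:177672377-177938943), 137 kb and 129 kb.

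The surplus was largest among weak regions. Grouped by the highest fold of a region, the ratio of density over the rest of chromosome 5 was 5.36 below a fold of 4, 4.55 from 4 to 6, 2.47 from 6 to 8, 2.74 from 8 to 12 and 3.35 from 12 upward. Members below a fold of 4 numbered 7798, and members of 12 and above numbered 550. Only 8.90% of the members reached a fold of 8, against 13.6% of regions on the rest of chromosome 5. The median Dox fold was 3.84 in the segment, 4.75 on the rest of chromosome 5 and 4.29 on the other chromosomes. The median No Dox fold was 3.60 in the segment, 3.60 on the rest of chromosome 5 and 3.81 on the other chromosomes. Peaks below a fold of 4 were 58.4% of the Dox peaks of the segment, against 36.1% on the rest of chromosome 5, and 63.9% of its No Dox peaks, against 58.0%. The median of the segment was thus below that of the rest of its chromosome in Dox and equal to it in No Dox.

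**Figure D2:**
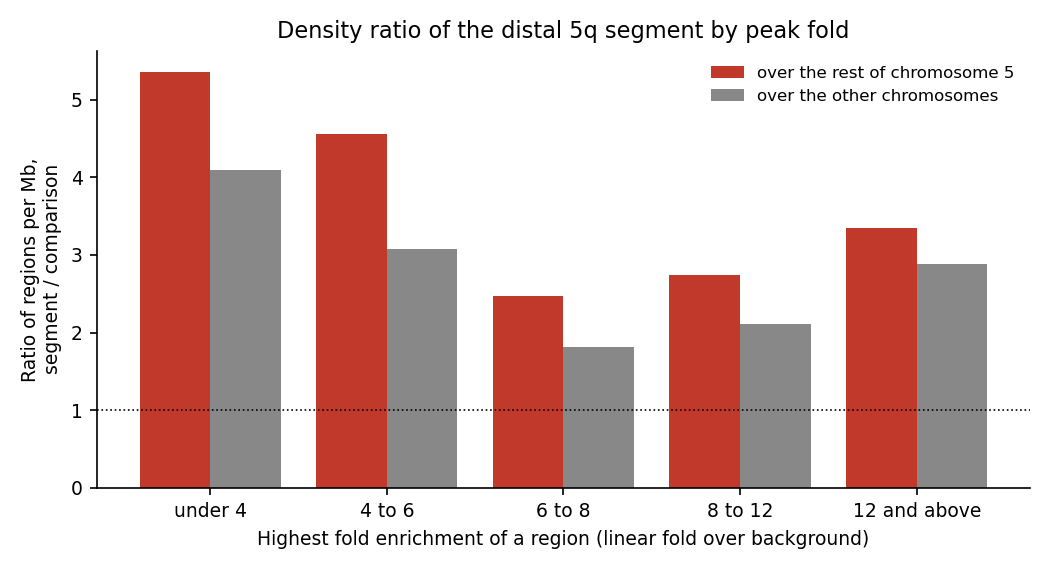
Ratio of regions per Mb in the distal 5q segment over the rest of chromosome 5 (red) and over the other chromosomes (grey), by the highest fold of a region, with a dotted line at 1. The ratio over the rest of chromosome 5 is highest, at 5.36, for regions below a fold of 4 and lowest, at 2.47, from 6 to 8.

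A set of 455 shared regions of the segment within 1 kb of a transcription start had median folds of 10.4 in Dox and 11.2 in No Dox. This set is narrower than the 726 shared members with any annotated start within 1 kb. The matching set on the rest of chromosome 5 (255 regions) had medians of 9.72 in Dox and 11.2 in No Dox. For the matching set of the series (12489 regions) the medians were 7.69 in Dox and 8.26 in No Dox. Shared regions more than 10 kb from a start had lower folds than on the rest of the chromosome. Their medians were 4.07 in the segment and 4.97 on the rest for Dox, and 4.24 in the segment and 5.51 on the rest for No Dox. The medians of the narrower set at starts were thus close to those of the rest of chromosome 5, and the medians far from starts were lower.

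Members lay in introns most often (44.5%), followed by intergenic DNA (30.5%), promoters within 3 kb of a start (20.7%) and exons (4.27%). Dox-only members were at promoters more often than NoDox-only members, with 26.0% (24.3 to 27.7) against 13.3% (12.4 to 14.2). The values for the whole series were 30.2% of Dox-only regions and 15.5% of NoDox-only regions. Of Dox-only members, 29.2% lay more than 100 kb from any coding start, against 53.0% of NoDox-only members. The whole series was close to this, with 27.2% of Dox-only and 52.1% of NoDox-only regions. The density ratio over the rest of chromosome 5 was 7.41 in exons, 6.01 in introns, 4.65 at promoters and 3.32 in intergenic DNA. GC content also differed between the classes, with a median of 49.8% in Dox-only members, 42.9% in NoDox-only members and 47.8% in shared members. The order was the same in the whole series, with 50.7% in Dox-only, 44.3% in NoDox-only and 50.5% in shared regions. On the rest of chromosome 5 shared regions were highest, with 47.9%, followed by Dox-only regions with 45.6% and NoDox-only regions with 43.8%.

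The balance of the conditions changed along the segment. The Dox-only share of condition-only regions was 61.4% (56.5 to 66.1) at 130 to 135 Mb, the highest of the 15 windows, and 12.7% (10.6 to 15.0) at 165 to 170 Mb, the lowest. It was 47.4% at 135 to 140 Mb, fell to 15.5% at 160 to 165 Mb and was 56.1% (47.9 to 64.1) in the last 1.48 Mb of the chromosome. The window of highest share held 256 Dox-only and 161 NoDox-only regions, and the window of lowest share held 116 Dox-only and 797 NoDox-only regions. At 130 to 135 Mb there were 102 Dox peaks and 83.4 No Dox peaks per Mb, and at 165 to 170 Mb there were 73.8 Dox peaks and 209 No Dox peaks per Mb. The lists thus differed in opposite directions in these windows, and the wider gap between windows was in No Dox. Over the 15 windows the share moved with GC content (Spearman's rho 0.757, Pearson's r 0.730) and with the number of coding genes per Mb (rho 0.810, r 0.677). Over the 22 windows of the rest of chromosome 5 the values were rho 0.491, r 0.398 for GC content and rho 0.667, r 0.689 for coding genes per Mb. There the share ran from 6.06% at 85 to 90 Mb to 66.7% at 55 to 60 Mb, so a changing balance was not particular to the segment. These windows share the same 2 peak lists and differ in GC content, gene number and density together, so the part of each was not tested. In the segment, Dox peaks per Mb followed GC content (rho 0.743, r 0.826), and for No Dox peaks per Mb the value was rho 0.214, r 0.134.

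**Figure D3:**
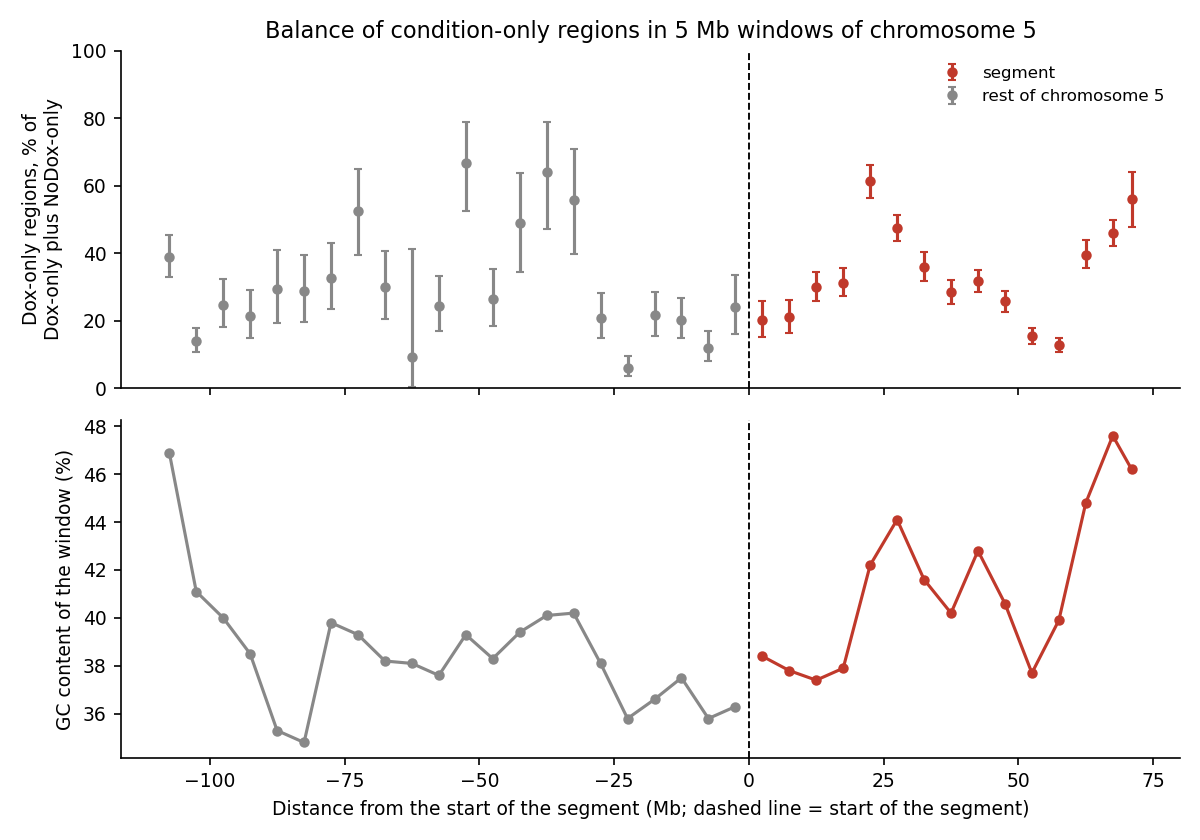
Upper panel, Dox-only regions as a percentage of Dox-only plus NoDox-only regions in 5 Mb windows of chromosome 5, with exact Clopper-Pearson intervals of 95%, for the segment (red) and the rest of chromosome 5 (grey), against the distance from the start of the segment in Mb. Lower panel, GC content of the same windows. In the segment the share peaks at 61.4% and falls to 12.7% before it climbs again towards the end of the chromosome. GC content is 42.2% where the share is highest and 39.9% where it is lowest. The extremes of GC content lie in other windows, at 47.6% with a share of 45.9% and at 37.4% with a share of 30.1%.

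Motifs were not used to choose the segment. They were sought as the fixed sequences above, on both strands, in the 100 bp to each side of the strongest summit of a region. A TEAD motif was found in 7.66% of the members, 9.98% of regions on the rest of chromosome 5 and 8.87% of all regions of the series. An AP-1 motif was found in 8.95% of the members, 16.3% of regions on the rest of chromosome 5 and 13.1% of all regions. The TEAD sequence written backwards (CCTTACA and CCTTACG), searched in the same way, was found in 2.48% of the members, 2.40% of regions on the rest of chromosome 5 and 2.19% of all regions. A match is a run of letters and no evidence of binding.

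TEAD motifs were more frequent in Dox-only members than in NoDox-only members, at 9.15% (8.08 to 10.3) against 5.69% (5.11 to 6.31). The Dox-only value was lower than on the rest of chromosome 5, where it was 21.1% (18.1 to 24.3), and the NoDox-only value was 5.77% there. AP-1 motifs went the other way, with 4.46% (3.71 to 5.31) of Dox-only members, 7.46% (6.80 to 8.16) of NoDox-only members and 14.8% (13.7 to 16.0) of shared members. On the rest of chromosome 5 they were found in 13.8% of Dox-only, 13.0% of NoDox-only and 24.4% of shared regions. Both motifs were thus less frequent in Dox-only regions of the segment than in those of the rest of its chromosome. In the whole series, TEAD motifs were found in 13.6% of Dox-only and 5.72% of NoDox-only regions, and AP-1 motifs in 8.12% and 11.7%. The Dox-only values of the series lay between those of the segment and of the rest of chromosome 5.

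The TEAD share of Dox-only members grew with fold. Of these regions, 7.14% (6.10 to 8.30) held a TEAD motif below a fold of 4, 15.9% (12.5 to 19.9) from 4 to 6, 18.6% (8.39 to 33.4; 8 of 43) from 6 to 8, and 45.5% (28.1 to 63.6; 15 of 33) from 8 upward. On the rest of chromosome 5 the values in the same bins were 12.5% (9.43 to 16.1), 27.5% (21.3 to 34.3), 49.1% (35.6 to 62.7) and 37.2% (23.0 to 53.3). Intervals of the segment and the rest were apart in the 3 lower bins and overlapped from 8 upward. In the whole series the values were 8.25% (7.90 to 8.60), 21.7% (20.8 to 22.7), 39.0% (36.5 to 41.4) and 46.4% (42.9 to 50.1). Intervals of the segment and the series overlapped below a fold of 4 and from 8 upward. In NoDox-only members the AP-1 share was 5.46% below a fold of 4, 14.0% (11.9 to 16.3) from 4 to 6, 35.9% (24.3 to 48.9) from 6 to 8 and 35.9% (21.2 to 52.8; 14 of 39) from 8 upward. The rest of chromosome 5 had 8.07%, 27.9% (23.5 to 32.6), 46.8% (34.0 to 59.9) and 31.6% (12.6 to 56.6). The whole series had 7.74%, 22.5%, 40.2% and 40.8%. At a fold of 8 or more, 3 of 39 NoDox-only members held a TEAD motif and 2 of 33 Dox-only members an AP-1 motif. These bins of fold were chosen after the values were seen.

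**Figure D4:**
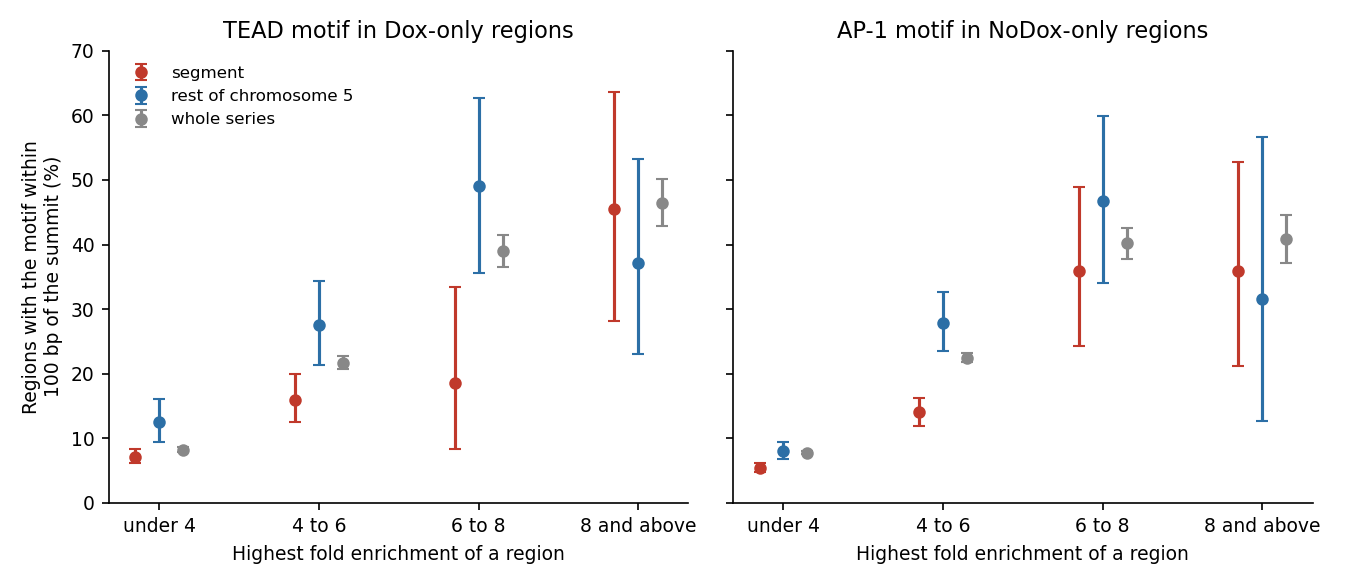
Percentage of regions with the motif within 100 bp of the summit, by the highest fold of the region, for TEAD in Dox-only regions (left) and AP-1 in NoDox-only regions (right), with exact Clopper-Pearson intervals of 95%, in the segment (red), the rest of chromosome 5 (blue) and the whole series (grey). In the segment the TEAD share climbs to 45.5% at a fold of 8 or more and lies below the rest of chromosome 5 in the 3 lower bins.

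Each member was counted for the coding gene whose start was nearest, up to 100 kb away, which placed 6956 members at the 518 coding genes of the segment and left 5117 farther away. Of these genes, 203 had more Dox-only than NoDox-only regions, 193 had more NoDox-only regions and 122 had equal numbers. Within 100 kb of coding genes the Dox-only share was 40.6% (39.2 to 42.1), above the 31.2% of all condition-only members. In the whole series, too, 27.2% of Dox-only and 52.1% of NoDox-only regions lay more than 100 kb from a coding start. A higher share near genes was thus not particular to the segment. A peak near a gene is no measurement of its expression.

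The gene with the largest surplus of Dox-only regions was PITX1, a homeobox factor of hindlimb development, with 28 Dox-only, 4 NoDox-only and 8 shared regions. None of its NoDox-only regions was strong, and 14 of its Dox-only regions were, with a highest fold of 4.97. CXXC5, a zinc finger protein that dampens Wnt signalling, had 24 Dox-only regions and 1 NoDox-only region. TCF7, a DNA-binding partner of beta-catenin, had 19 Dox-only regions and 1 NoDox-only region. NRG2, a neuregulin ligand of ERBB receptors, had 22 Dox-only and 3 NoDox-only regions. CSF1R, the receptor of macrophage colony-stimulating factor, had 16 Dox-only regions with a highest fold of 9.49 and 1 NoDox-only region with a fold of 3.18. CTNNA1, the alpha-catenin of adherens junctions, had 21 Dox-only and 4 NoDox-only regions. PCDH1, a protocadherin, had 24 Dox-only and 7 NoDox-only regions. The other genes of these 10 were PSD2 with 16 Dox-only and 2 NoDox-only regions, PPARGC1B, a coactivator of mitochondrial genes, with 17 Dox-only and 4 NoDox-only, and UNC5A, a netrin receptor, with 20 Dox-only and 7 NoDox-only. The highest Dox-only fold of each of the 10 genes lay between 4.07 at PSD2 and 9.49 at CSF1R. CXXC5 (chr5:139647299-139683882), PSD2 (chr5:139795808-139844466) and NRG2 (chr5:139846779-140043299) lie close together.

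The genes with the largest surplus of NoDox-only regions each held between 40 and 103 of them. TENM2 had 12 Dox-only and 103 NoDox-only regions, although it also held one of the strongest Dox-only regions. PPP2R2B, a regulatory subunit of protein phosphatase 2A, had 27 Dox-only and 102 NoDox-only regions, of which 2 Dox-only and 30 NoDox-only regions were strong. ATP10B, a lipid flippase, had 17 Dox-only and 79 NoDox-only regions, the strongest NoDox-only region with a fold of 9.32. SGCD, the delta-sarcoglycan of muscle membranes, had 8 Dox-only and 69 NoDox-only regions. GABRB2 and GABRA6 encode subunits of the GABA-A receptor. GABRB2 had 7 Dox-only and 65 NoDox-only regions, and GABRA6 had 3 Dox-only and 40 NoDox-only. NMUR2, a neuromedin U receptor, had 9 Dox-only and 54 NoDox-only regions, and KCNN2, a calcium-activated potassium channel, had 6 Dox-only and 43 NoDox-only. The direction was the same in all 20 genes with strong regions alone and with starts within 20 kb. These regions are part of the counts that picked the genes, so the agreement is no independent support. The smallest surplus of strong regions was 1 among the 10 Dox-only genes and 6 among the 10 NoDox-only genes.

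Wider loci showed both ends of this range. The interleukin cluster (chr5:132073789-132682678) held 34 Dox-only, 3 NoDox-only and 42 shared regions. The 100 kb on either side of PITX1 with the gene itself held 30 Dox-only, 4 NoDox-only and 9 shared regions. TENM2 and its neighbour WWC1, which encodes the Hippo pathway scaffold KIBRA, held 30 Dox-only, 245 NoDox-only and 75 shared regions. The gene body of SLIT3, a secreted guidance protein, held 27 Dox-only, 166 NoDox-only and 53 shared regions. TGFBI, an extracellular matrix gene, held 3 Dox-only, 2 NoDox-only and 7 shared regions.

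The 9 gene lists were written with earlier results of these data known, and their balance is given beside the 40.6% of all coding genes of the segment. Growth factors, cytokines and their receptors had 112 Dox-only and 54 NoDox-only regions, or 67.5% (59.8 to 74.5) Dox-only. Of these 20 genes, 12 had more Dox-only regions, 3 had more NoDox-only regions and 5 had equal numbers, among them CXCL14, a chemokine of epithelia, with 10 of each. FGF18 had 15 Dox-only and 10 NoDox-only regions. Housekeeping genes had 62.8% (51.1 to 73.5) Dox-only, with HNRNPH1, a splicing factor, at 8 Dox-only regions and 1 NoDox-only region. Cell cycle genes had 57.4% (42.2 to 71.7), with PTTG1, the securin, at 12 Dox-only and 5 NoDox-only regions, and CCNG1, cyclin G1, at 4 Dox-only and 10 NoDox-only. Without PTTG1 the cell cycle genes had 15 Dox-only and 15 NoDox-only regions.

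Transcription factors and coregulators had 93 Dox-only and 89 NoDox-only regions, or 51.1% (43.6 to 58.6), which joins opposite members. PITX1 and TCF7 alone gave 28 and 19 of these Dox-only regions, and MSX2, a homeobox factor, had 3 Dox-only and 25 NoDox-only regions. FOXI1 had 2 Dox-only and 16 NoDox-only regions, and EBF1, a factor of B cells and mesenchyme, had 7 Dox-only and 15 NoDox-only. Signal inhibitors and tumour suppressors had 41.7% (36.1 to 47.4), with PPP2R2B holding 102 of their 182 NoDox-only regions. Without PPP2R2B the share was 56.3% (48.8 to 63.6), and without PITX1 that of the transcription factors was 43.3% (35.3 to 51.7). WWC1 had 12 Dox-only regions with a highest fold of 8.82 and 15 NoDox-only regions with a highest fold of 5.30.

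Matrix and mesenchymal genes had 130 Dox-only and 294 NoDox-only regions, or 30.7% (26.3 to 35.3). FBN2 had 6 Dox-only and 40 NoDox-only regions, SLIT3 had 5 Dox-only and 33 NoDox-only within 100 kb of a start, and ADAMTS19, a secreted metalloprotease, had 6 Dox-only and 30 NoDox-only, while COL23A1, a transmembrane collagen, had 19 Dox-only and 27 NoDox-only. Immune genes had 24.2% (16.0 to 34.1), neural genes 17.8% (15.0 to 20.7) and heart and muscle genes 16.3% (9.82 to 24.9). SGCD, which is in the matrix list and in the list of 5 heart and muscle genes, gave 8 of the 17 Dox-only and 69 of the 87 NoDox-only regions of the heart and muscle genes. Without SGCD the share of these genes was 33.3% (16.5 to 54.0) and that of the matrix genes 35.2% (30.1 to 40.4). HAND1 and NKX2-5 were likewise in the heart and muscle list and among the transcription factors. Of the 18 neural genes, 15 had more NoDox-only regions and 3 had more Dox-only regions. TIMD4, a phosphatidylserine receptor, had 1 Dox-only region and 24 NoDox-only regions, and without it the share of the immune genes was 31.4% (20.9 to 43.6). Without TENM2 the share of the neural genes was 19.1% (16.1 to 22.5). A promoter peak in both lists was found at 17 of the 18 neural genes and 6 of the 9 immune genes. Each gene left out held more Dox-only and NoDox-only regions together than any other gene of its list, and this step was added after the values were seen.

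**Figure D5:**
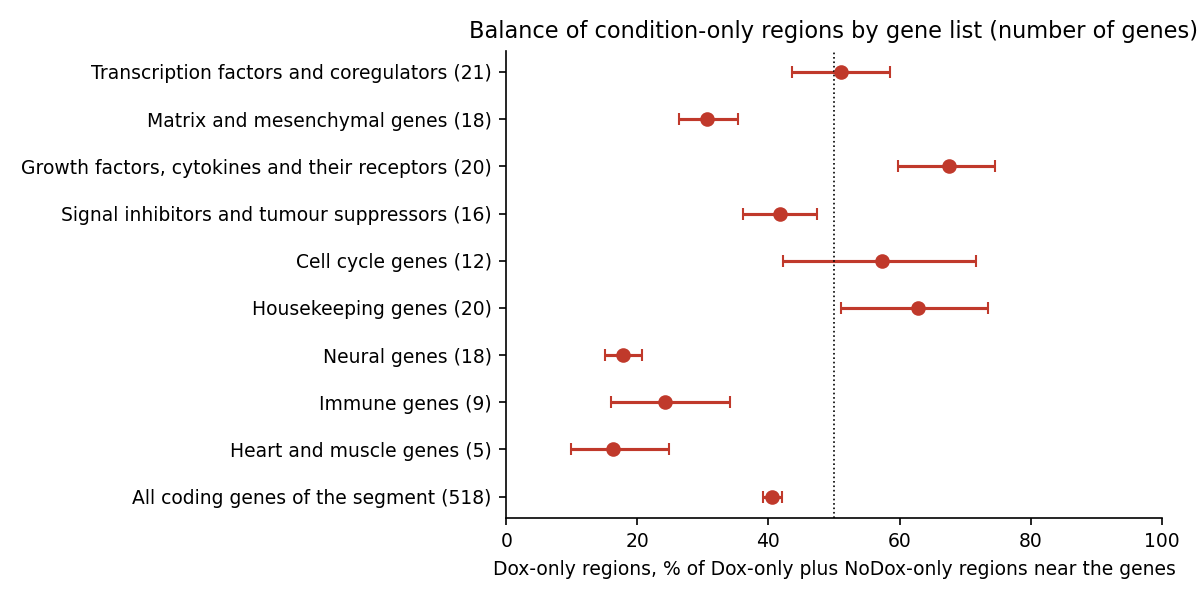
Dox-only regions as a percentage of the Dox-only plus NoDox-only regions assigned to each list of genes, with exact Clopper-Pearson intervals of 95% and the number of genes of each list in brackets. Growth factors, cytokines and their receptors are at 67.5%, neural genes at 17.8%, heart and muscle genes at 16.3% (33.3% without SGCD) and all coding genes of the segment at 40.6%.

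Promoters were open in both conditions at most genes. Of the 513 coding genes of the segment with a coding transcript, 404 (78.8%, 75.0 to 82.2) had a peak within 1 kb of a start in both lists, against 71.5% (66.5 to 76.1) on the rest of chromosome 5 and 63.6% in the series. A peak in Dox alone was found at 33 genes (6.43%, 4.47 to 8.92), against 1.96% (0.790 to 3.99) on the rest of chromosome 5 and 5.75% of all coding genes. A peak in No Dox alone was found at 23 genes (4.48%, 2.86 to 6.65), against 4.47% (2.58 to 7.16) on the rest of chromosome 5 and 3.98% of all coding genes. No peak in either list was found at 53 genes (10.3%), against 22.1% on the rest of chromosome 5. Genes open in Dox alone included NEUROG1, a neural bHLH factor, WNT8A, a Wnt ligand, and IL17B, a cytokine. Genes open in No Dox alone included SPINK5, a protease inhibitor of stratified epithelia, and KLHL3, an adaptor of a ubiquitin ligase.

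Gene families made up a large part of the genes with a promoter peak in 1 condition. Of the 53 clustered protocadherin genes, whose many promoters give neurons their surface identity, 20 had a peak in both lists, 6 in Dox alone, 10 in No Dox alone and 17 in neither. They thus gave 10 of the 23 genes open in No Dox alone. These genes are near-identical copies in places, so the placement of their reads is uncertain, and its part in these counts was not tested. Of the 7 SPINK genes, 2 had a peak in both lists, 2 in Dox alone and 3 in No Dox alone. All other coding genes had 25 in Dox alone and 10 in No Dox alone. These families were singled out after their values were seen.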

How the data were processed

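ATAC-seq read pairs were aligned by the authors to hg38 with BWA, the 2 replicates of each condition were pooled, and peaks were called with MACS2 at an FDR of 0.05. Tool versions are not given in the sources used here. The deposited lists give each peak's fold enrichment at its summit, a ratio of pooled signal to background, and the −log10 of its q-value, both as the peak caller wrote them. Folds were compared within a list or as the highest fold of a region, not between conditions.

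Overlapping or touching peaks of the 22 autosomes and X were merged. Regions were placed with GENCODE release 44 and the hg38 sequence, and density was taken per Mb without unknown bases. Shares have exact Clopper-Pearson intervals, and no p-value was computed. The merging, the motif search and the search for the density step were tested on simulated data, where 100% of 3000 regions had the right class. Simulated regions never touched and held no more than 1 peak of each list, so the merging of crowded peaks was not covered. The segment, the gene lists, the motifs and the alternatives were chosen with earlier results of these data known. Named were the 10 genes with the largest surplus in each direction, the 5 regions of highest fold in each class, the windows of highest and lowest values, and, from each list, up to 5 genes richest in condition-only regions plus those with a promoter peak in 1 condition. Some genes and regions picked in this way are not reported here. RUNX and CTCF motifs were also searched. Scripts ran in Python 3.11.15 (pandas 2.3.3, numpy 2.4.6, pysam 0.24.0, scipy 1.17.1, matplotlib 3.10.9).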

Additional observations from a re-analysis of the deposited data

How the results depend on the processing

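The density ratio stayed above 1 and the NoDox-only regions outnumbered the Dox-only regions of the segment under every alternative run, except that the Dox-only share was 50.8% with lists of equal length, where the ratio was 4.89 and the median No Dox fold 4.02. A q-value of at most 0.01 left 11790 members, with a share of 31.0%, a ratio of 4.62 and median folds of 3.84 in Dox and 3.60 in No Dox, all close to the main values. A q-value of at most 1e-05 left 4280 members, with a share of 34.6%, a ratio of 3.71 and median folds of 5.43 in Dox and 5.08 in No Dox. Strong regions numbered 4857, with 23.8%, 3.84, 5.43 and 4.66 for the same quantities, and regions of fold 8 or more numbered 1074, with 45.8%, 3.02, 12.0 and 12.5. The share was 32.6% when shared regions needed an overlap of 50%. Without promoters it was 28.0% and the median No Dox fold 3.39. The ratio was 4.35 with the segment starting 5 Mb earlier, 4.83 with a start at 119 Mb, which was chosen after seeing the data, and 3.38 over the other autosomes. With each window of 10 Mb left out in turn, the share lay between 28.2% and 36.0% and the ratio between 4.29 and 5.06. The TEAD share was 4.76% of Dox-only and 2.73% of NoDox-only members within 50 bp of the summit. In whole regions it was 15.4% (14.0 to 16.8) and 13.5% (12.6 to 14.4), and these intervals overlapped. The median width was 354 bp in Dox-only and 418 bp in NoDox-only members, so whole regions gave both motifs unlike lengths to match in the classes. The TEAD share was 18.2% of strong Dox-only members and 5.37% of strong NoDox-only members. The AP-1 share was 2.32% of Dox-only and 4.56% of NoDox-only members within 50 bp, 7.95% and 13.1% in whole regions, and 8.26% and 13.8% in strong regions. The promoter share was 9.82% with protein-coding transcripts alone. The cause of these shifts was not tested beyond what each setting removes. No paired analysis was possible because each condition has 1 list of pooled replicates, and no replicate could be left out. Depth is unknown, so a region missing from a list may have signal below the caller's threshold.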

Other observations

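The segment holds 37 annotated microRNA hairpins. A shared region lay within 1 kb of 13 of them, only Dox-only regions lay there at 2, only NoDox-only regions at 4 and no region at 18. Hairpins elsewhere were not counted, and the median distance to the next region in the segment was 2.29 kb. Whether any of these counts is particular to microRNAs therefore cannot be told. MIR146A, the hairpin of a microRNA of the innate immune response (chr5:160485352-160485450), had 2 shared regions within 1 kb, and 2 Dox-only regions and 1 NoDox-only region within 10 kb. MIR143 and MIR145, which are processed from 1 host transcript and are abundant in smooth muscle, had none within 1 kb. MIR218-2, which lies in an intron of SLIT3, had none within 1 kb, with 0 Dox-only, 7 NoDox-only and 3 shared regions within 10 kb. MIR585, in the same gene, had a NoDox-only region within 1 kb, with 1 Dox-only and 8 NoDox-only regions within 10 kb. Within 10 kb of MIR1229, near the end of the chromosome, there were 3 Dox-only, 0 NoDox-only and 3 shared regions.

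The RUNX sequence (TGCGGT and TGTGGT, both strands) was found in 17.1% (16.5 to 17.8) of the members and 18.8% (17.6 to 20.0) of regions on the rest of chromosome 5, and a consensus of CTCF, the insulator protein, in 0.787% (0.637 to 0.961) and 0.774% (0.526 to 1.10). The RUNX share was 18.3% in Dox-only, 16.0% in NoDox-only and 18.1% in shared members, and 17.7% in the whole series. The RUNX sequence is shorter than that of TEAD and no control sequence was searched for it. Its share above random matches is therefore unknown and cannot be compared with the TEAD share.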
